A study of Homo sapiens with 16 samples.

Results

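A group of 42 genes for molecular chaperones and the unfolded protein response was followed across the 4 groups of libraries in the study. The genes were taken by name from a list by function, and all 42 were present in the counts of both experiments, out of 28443 genes joined over the experiments. The list was chosen with earlier results of these data known. Setting it against all genes therefore describes the group and is no unbiased test. By role, 22 act in the cytosol or in mitochondria (5 of the HSP70 family, 3 HSP70 partners, 4 for HSP90 and its adaptors, 1 small heat shock protein, the heat shock factor HSF1, 3 mitochondrial chaperones and 5 subunits of the CCT chaperonin). The other 20 belong to the endoplasmic reticulum (ER): 3 sensors and effectors of its stress response, 8 chaperones and cofactors, 5 lectin chaperones and disulfide isomerases, and 4 of ER-associated degradation. All 42 passed the filter on low counts in every comparison.

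Poly-A RNA was sequenced from U2OS cells, a human osteosarcoma line. The groups, each of 4 libraries, were MDM2 W329G cells under 5-FU, MDM2 W329G cells under DMSO, WT cells under 5-FU and WT cells under DMSO. MDM2 is the ubiquitin ligase that restrains p53, W329G exchanges a tryptophan for glycine in it, and the isogenic lines came from CRISPR/Cas9 editing. 5-FU (5-fluorouracil, a pyrimidine analog) was given at 50 µM for 24 h, and DMSO is its vehicle. Each genotype was represented by cells #1 and cells #2, and whether these are single clones is not given in the sources used here. Cells #1 and #2 gave replicates 1 and 2 in the first experiment and replicates 3 and 4 in the second, which another vendor sequenced. The study asks how the W329G change alters p53 regulation, with the genotypes compared under 5-FU and under DMSO.

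Chaperones bind unfolded proteins and help them fold: HSP70 proteins work in cycles driven by J-domain partners, HSP90 takes over part-folded clients, and the CCT ring folds actin and tubulin. HSF1 is the transcription factor that raises the cytosolic set under heat and other proteotoxic stress. In the ER, unfolded proteins activate IRE1 (encoded by ERN1), ATF6 and PERK. IRE1 splices XBP1 mRNA into the form that encodes an active transcription factor, and ATF6 and XBP1 then raise ER chaperones and degradation factors, while PERK acts through ATF4.

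Total counts per library ran from 24715999 to 56877328, and mitochondrially encoded genes held 7.16% to 31.91% of the joined counts. MDM2, the edited gene, averaged 75.7 ± 19.97 CPM in W329G 5-FU, 72.8 ± 31.2 in W329G DMSO, 231 ± 47.8 in WT 5-FU and 60.9 ± 18.9 in WT DMSO libraries (CPM, counts per 1000000 counts of a library after TMM scaling; SD, n = 4 each). A gene count cannot show a single base change, so these levels do not check the genotype labels. The mesenchymal markers COL1A1, SPARC, FN1 and VIM stood at 658 CPM or more in every library, CDH2 at 137 to 291 CPM and the osteoblast factor RUNX2 at 21.2 to 77.7 CPM, while SP7, TWIST1, ALPL and COL1A2 of the same list were at or near 0 (at most 8.80 CPM). Among blood markers, PTPRC, CD3E, HBB and SPI1 were at or near 0 (at most 1.65 CPM), and LYZ reached 127 CPM. Summed epithelial markers ran from 141 to 637 CPM in W329G 5-FU, 139 to 664 in W329G DMSO, 316 to 733 in WT 5-FU and 261 to 619 in WT DMSO libraries, so the groups overlapped. Of these markers KRT8 reached 418 CPM and KRT18 260 CPM, and the others at most 46.5 CPM. Summed neural markers ran from 208 to 284, 172 to 270, 186 to 395 and 114 to 238 CPM in the same order of groups, which also overlapped. NEFL reached 337 CPM and TUBB3 196 CPM.

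The cell numbers did not behave as lasting names of lines. Across all genes, the difference between cells #1 and cells #2 of W329G correlated with r = -0.57 between the experiments under 5-FU and r = -0.48 under DMSO, and in WT cells with r = -0.30 and r = -0.19. Within an experiment the same difference correlated between 5-FU and DMSO with r = 0.71 and 0.63 in W329G cells and 0.49 and 0.59 in WT cells. Pairs of 5-FU and DMSO libraries of a line within an experiment were therefore used as labelled, and genotype comparisons on sums per line are given also with the numbers exchanged in the second experiment.

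After 24 h of 5-FU, most of the 42 mRNAs stood below their DMSO level in both genotypes. No gene of the 42 was called higher by edgeR or DESeq2, against 0.196% of all genes called higher in W329G cells and 3.55% in WT cells. In edgeR's fit without a block for pairs, none had a positive change with an unadjusted p under 0.05. With each pair as a block, SYVN1 had one in both genotypes (edgeR, unadjusted p = 0.0283 in W329G cells and 0.0267 in WT cells). In W329G cells, 3 of the 42 genes fell (HSPA8, XBP1 and HERPUD1), and in WT cells 15 fell, among them HSPA8, XBP1, HSPA5, all 5 CCT subunits and all 3 mitochondrial chaperones. The counts stand against 0.595% of 16301 genes called lower in W329G cells and 5.25% in WT cells (edgeR's quasi-likelihood test, Benjamini-Hochberg adjusted p under 0.05). Negative log2 fold changes were found for 39 of 42 genes in W329G cells and 38 of 42 in WT cells, against 46.7% and 48.8% of all genes tested. The median log2 fold change of the 42 was -0.30 in W329G cells and -0.35 in WT cells, while the median over all genes was 0.023 and 0.0092.

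**Figure D1:**
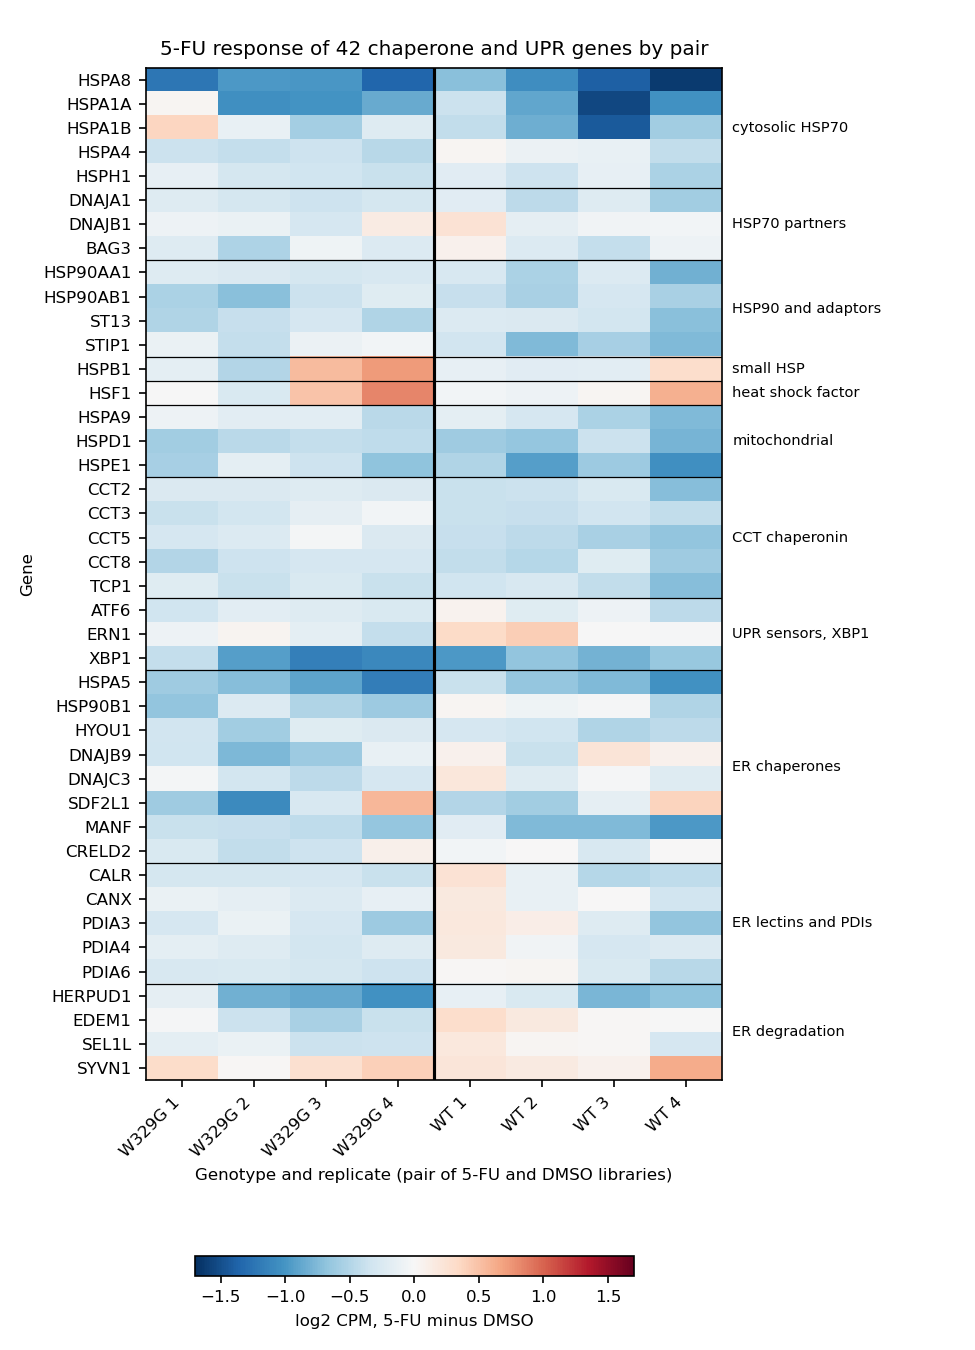
Response of each of the 42 genes (rows, grouped by role) in each pair of libraries (columns), as log2 CPM under 5-FU minus log2 CPM under DMSO of the same line and experiment. Blue stands for lower under 5-FU: 33 genes are blue in all 4 W329G pairs and 22 in all 4 WT pairs, and HSPA8 is among the darkest rows in every pair.

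The pairs show the same picture without a fit. The median response of the 42 genes was -0.25, -0.31, -0.30 and -0.29 on the log2 scale in W329G pairs 1 to 4, and -0.18, -0.28, -0.27 and -0.52 in WT pairs 1 to 4. A total of 33 genes were lower in all 4 W329G pairs and 22 in all 4 WT pairs, against 16.6% and 20.3% of all genes. The cytosolic and mitochondrial genes gave 17 of 22 in each genotype. The ER genes gave 16 of 20 in W329G cells and 5 of 20 in WT cells; the difference between genotypes is tested gene by gene further on. In 10 genes every W329G 5-FU library lay below every W329G DMSO library, and in 8 every WT 5-FU library below every WT DMSO library, against 2.44% and 4.37% of all genes. With each pair as a block in the fit, which its shared line warrants, 16 of the 42 fell in W329G cells and 22 in WT cells, against 5.85% and 13.2% of all genes.

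HSPA8, the constitutive cytosolic HSP70 that folds new proteins and uncoats clathrin vesicles, changed most. It is read from chromosome 11, 123057489 to 123063230 on the minus strand (GRCh38 coordinates of the deposited tables). The 5-FU libraries held 687, 739.6, 638 and 625 CPM in W329G cells (replicates 1 to 4), against 1609, 1451, 1267 and 1599 CPM in the DMSO libraries. For WT cells the values were 654, 671, 581 and 489.9 CPM under 5-FU, against 1066, 1395, 1519 and 1513 CPM under DMSO. Every 5-FU library lay below every DMSO library in both genotypes. The log2 fold change was -1.15 ± 0.14 in W329G cells (SE, adjusted p = 0.00159) and -1.22 ± 0.15 in WT cells (adjusted p = 8.64e-05). By experiment the mean pair response of HSPA8 was -1.10 and -1.17 in W329G cells and -0.88 and -1.51 in WT cells. Some 15.4% of the 50-base stretches of its transcript also occur in other genes, mostly pseudogenes, so part of its reads could be placed elsewhere.

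**Figure D2:**
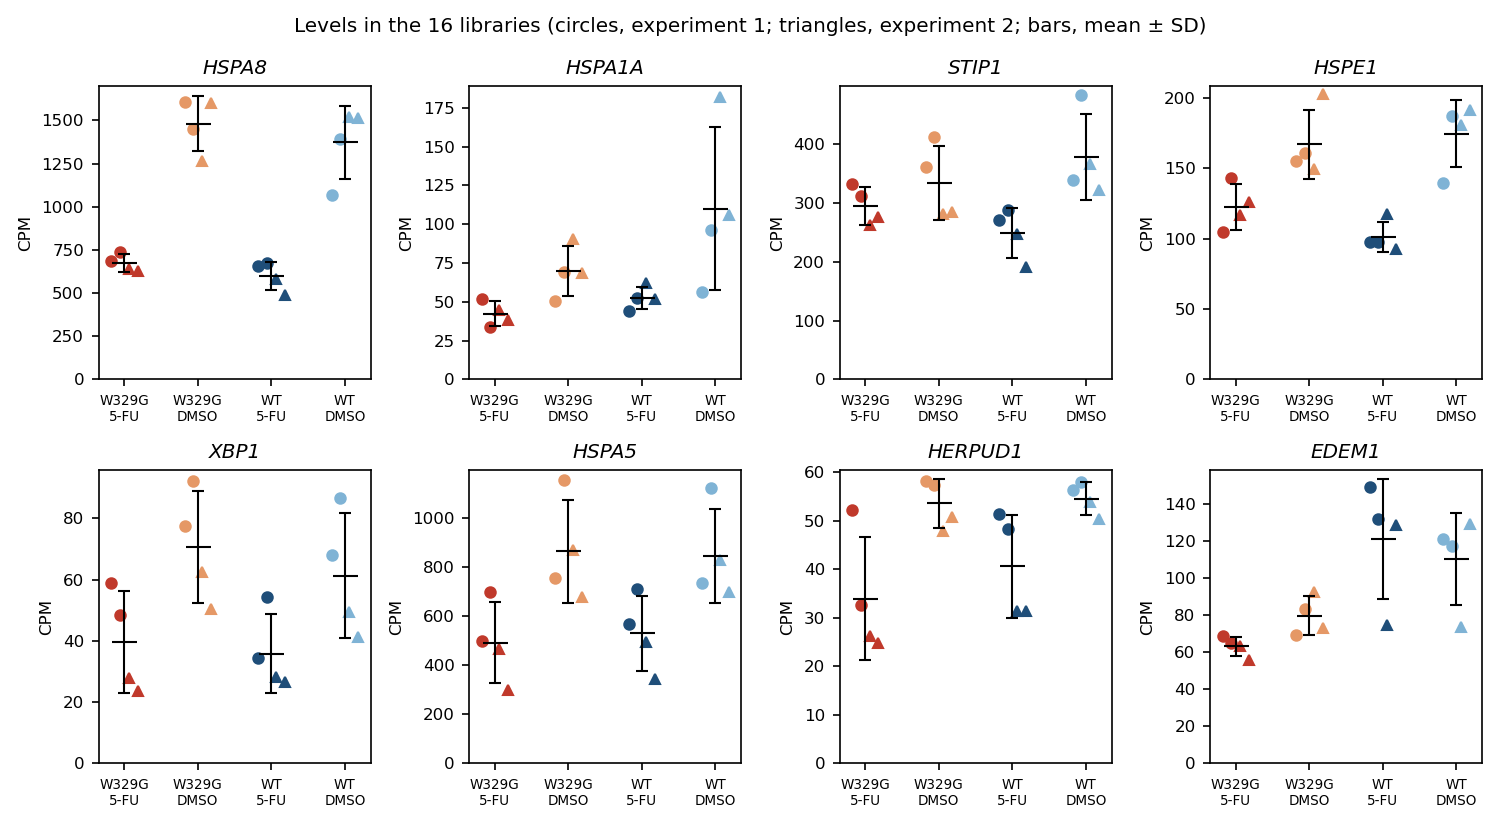
CPM of 8 of the genes in all 16 libraries, by group, with the 5-FU group left of the DMSO group of its genotype. Circles are experiment 1, triangles experiment 2, and bars the mean ± SD of 4 libraries: HSPA8 averaged 672 under 5-FU against 1482 under DMSO in W329G cells, and 599 against 1373 in WT cells, without overlap.

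The bases before the start of HSPA8 hold matches to the heat shock element, the repeat of GAA units that HSF1 binds. They are printed with those of 3 ER genes that are described below. In W329G cells these 4 genes had among the largest changes in the group, as did HSPA1A. In WT cells HSPA1A, HSPA1B, HSPE1, MANF, HSPD1, STIP1 and CCT5 changed more than HERPUD1. None of these holds a motif of the kinds marked here. The 4 printed genes are examples, chosen with earlier results of these data known. Each run is the 250 bases before the RefSeq start (GRCh38.p14, gene's own strand), in lower case with the motif matches in capitals: chr11:123062137-123062386 for HSPA8, chr22:28800570-28800819 for XBP1, chr9:125241344-125241593 for HSPA5, all on the minus strand, and chr16:56931892-56932141 on the plus strand for HERPUD1. The RefSeq start of HSPA8 lies inside the span given above, which covers all transcripts of the gene.
HSPA8: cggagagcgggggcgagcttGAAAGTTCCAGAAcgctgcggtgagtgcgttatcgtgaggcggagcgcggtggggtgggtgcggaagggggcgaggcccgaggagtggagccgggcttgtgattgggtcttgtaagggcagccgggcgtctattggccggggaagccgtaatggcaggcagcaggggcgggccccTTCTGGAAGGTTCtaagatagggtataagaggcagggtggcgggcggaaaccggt
XBP1: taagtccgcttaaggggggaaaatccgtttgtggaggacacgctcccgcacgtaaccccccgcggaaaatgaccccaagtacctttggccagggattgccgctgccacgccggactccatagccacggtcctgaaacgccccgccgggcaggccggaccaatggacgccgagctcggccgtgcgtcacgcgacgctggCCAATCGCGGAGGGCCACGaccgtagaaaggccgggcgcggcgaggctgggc
HSPA5: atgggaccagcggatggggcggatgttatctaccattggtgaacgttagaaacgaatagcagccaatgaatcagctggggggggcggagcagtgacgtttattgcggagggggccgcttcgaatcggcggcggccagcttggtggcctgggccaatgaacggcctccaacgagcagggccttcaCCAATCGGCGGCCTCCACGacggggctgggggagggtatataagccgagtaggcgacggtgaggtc
HERPUD1: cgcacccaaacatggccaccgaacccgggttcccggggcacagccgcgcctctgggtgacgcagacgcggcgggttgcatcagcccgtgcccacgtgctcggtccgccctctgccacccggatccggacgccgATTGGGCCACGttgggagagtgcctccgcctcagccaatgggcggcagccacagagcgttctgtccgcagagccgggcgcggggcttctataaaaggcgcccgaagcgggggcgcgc

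In the HSPA8 run the capitals mark both matches to the heat shock element with 3 units, GAA, TTC and GAA with 2 bases of any kind between them, searched on both strands. These matches start 230 and 55 bases before the start. Capitals in the XBP1 and HSPA5 runs mark the ER stress response element (CCAAT, 9 bases of any kind, CCACG), and in the HERPUD1 run the ER stress response element II (ATTGG, 1 base of any kind, CCACG). RefSeq windows of 300 bases (250 before to 50 after the start) were at hand for 39 of the 42 genes, all but ST13, HSF1 and PDIA3. The long heat shock element was found in 2 of them (HSPA8 and DNAJA1) and in 0.49% of 35116 windows of all genes. Its shorter form GAANNTTC, which the long form contains, was found in 6 (HSPA8, HSPA1A, HSPA1B, DNAJA1, HSPB1 and TCP1) and in 6.77% of all windows, and the other phase TTCNNGAA, also within the long form, in 3 (HSPA8, DNAJA1 and HSPA9) and in 7.74%.

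Within the 39 windows, the ER motifs were found in ER genes alone. The ER stress response element stood in 6 of 19 ER windows (XBP1, HSPA5, HSP90B1, CRELD2, CALR and CANX), in 0 of the 20 cytosolic and mitochondrial windows, and in 0.0769% of all windows. Element II stood in HYOU1, SDF2L1 and HERPUD1 and in 0.0541% of all windows, and the unfolded protein response element TGACGTGG in HYOU1 and 0.729%. Of the 6 with the ER stress response element, XBP1 fell in both genotypes and HSPA5 in WT cells. CALR, CANX, CRELD2 and HSP90B1 did not pass the test without the block in either genotype. With the pair as block, HSPA5 and HSP90B1 also fell in W329G cells (adjusted p = 0.00161 and 0.0142). A match describes letters in these windows, and binding was not measured.

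Among the other HSP70 genes, HSPA1A, the heat-inducible form, fell in WT cells. It had 52.1, 33.6, 44.7 and 38.0 CPM in W329G 5-FU libraries, against 50.8, 69.2, 90.7 and 68.6 CPM in W329G DMSO libraries. WT 5-FU libraries had 43.8, 52.3, 61.8 and 51.8 CPM, against 56.5, 96.1, 182 and 106 CPM in WT DMSO libraries. The groups overlapped in both genotypes, in W329G cells through replicate 1, where the pair differed by 0.036 on the log2 scale. HSPA1A had a log2 fold change of -0.71 ± 0.23 in W329G cells (adjusted p = 0.188, and 0.0265 with the pair as block) and -1.04 ± 0.23 in WT cells (adjusted p = 0.0111). The WT call was lost without replicate 2 (adjusted p = 0.0523) and without replicate 4 (adjusted p = 0.0621).

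HSPA1B, which encodes the same protein as HSPA1A from the neighbouring locus, had 60.3, 45.7, 50.3 and 38.3 CPM in W329G 5-FU libraries and 46.7, 50.1, 75.2 and 44.5 CPM in W329G DMSO libraries. It had 30.8, 43.7, 51.1 and 38.1 CPM in WT 5-FU libraries, against 41.2, 77.5, 137 and 57.6 CPM in WT DMSO libraries. Its log2 fold change was -0.14 ± 0.28 in W329G cells (adjusted p = 0.897) and -0.93 ± 0.28 in WT cells (adjusted p = 0.0504, and under the threshold with the pair as block). Since 72.6% of the 50-base stretches of HSPA1A also lie in HSPA1B, the split of reads between them is uncertain.

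HSPA4 and HSPH1, nucleotide exchange factors for HSP70, did not pass the test without the block in either genotype. HSPA4 averaged 300.1 ± 24.6 CPM in W329G 5-FU and 396 ± 37.2 CPM in W329G DMSO libraries, without overlap, and 353 ± 35.5 CPM in WT 5-FU and 394 ± 54.1 CPM in WT DMSO libraries. With the pair as block it was called lower in W329G cells (adjusted p = 0.0161). HSPH1 had log2 fold changes of -0.29 ± 0.12 in W329G cells and -0.32 ± 0.12 in WT cells, where it was called lower with the block.

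Of the 3 HSP70 partners, 1 passed the test. DNAJA1, a J-domain protein that loads clients on HSP70, fell in WT cells (log2 fold change -0.38 ± 0.10, adjusted p = 0.0249), where it averaged 284 ± 55.9 CPM under 5-FU and 364 ± 69.6 under DMSO. In W329G cells its log2 fold change was -0.30 ± 0.10 (adjusted p = 0.189). The WT call of DNAJA1 was lost with no filter on low counts, without WT pair 2 and without WT pair 4. DNAJB1, the J-domain partner most often used as a marker of HSF1 activity, had log2 fold changes of -0.09 ± 0.11 in W329G and -0.02 ± 0.11 in WT cells (adjusted p = 0.789 and 0.958). BAG3, which links HSP70 to autophagy and is an HSF1 target, stood at -0.26 ± 0.16 and -0.17 ± 0.16.

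HSF1 itself had 165, 173, 188 and 134 CPM in W329G 5-FU libraries, against 165, 206, 134 and 75.1 CPM in W329G DMSO libraries. It had 185, 225, 150.4 and 146 CPM in WT 5-FU libraries, against 191, 239, 147 and 96.1 CPM in WT DMSO libraries. The groups overlapped in both genotypes, and the response differed in sign between experiments: -0.13 and 0.66 on the log2 scale in W329G cells, and -0.069 and 0.31 in WT cells, for experiments 1 and 2. HSPB1, a small heat shock protein that holds unfolded proteins without ATP, and SDF2L1 of the ER also changed sign between experiments, with -0.33 and 0.63 for HSPB1 and -0.84 and 0.14 for SDF2L1 in W329G cells. None of the 3 passed the test.

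HSP90 genes and their adaptors were lower in all 4 pairs of both genotypes, 4 of 4 genes. STIP1, which hands clients from HSP70 to HSP90, fell in WT cells, with 271, 288, 247 and 192 CPM under 5-FU and 338, 485, 366 and 322 CPM under DMSO, without overlap (log2 fold change -0.62 ± 0.12, adjusted p = 0.00402). In W329G cells it had 332, 312, 262 and 276 CPM under 5-FU and 361, 412, 281 and 284 CPM under DMSO, which overlapped (log2 fold change -0.17 ± 0.12, adjusted p = 0.578). HSP90AB1, the constitutive cytosolic HSP90, averaged 1569 ± 98.5 CPM in W329G 5-FU and 2161 ± 263 in W329G DMSO libraries, and 1488 ± 230 in WT 5-FU and 2024 ± 347 in WT DMSO libraries. Its groups were apart in both genotypes, with log2 fold changes of -0.46 ± 0.13 in W329G cells (adjusted p = 0.137, and 0.0155 with the pair as block) and -0.45 ± 0.13 in WT cells (adjusted p = 0.0464). The WT call of HSP90AB1 was lost with DESeq2 size factors, with no filter on low counts, without mitochondrially encoded genes and without any 1 of the 4 WT pairs. HSP90AA1, the inducible form, did not pass without the block (log2 fold changes -0.27 ± 0.15 and -0.47 ± 0.15, adjusted p = 0.491 and 0.0733), and neither did ST13, an HSP70-interacting adaptor (-0.45 ± 0.16 and -0.39 ± 0.17). With the block both fell in WT cells and ST13 also in W329G cells.

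The 3 mitochondrial chaperones fell in WT cells, of which HSPE1 alone stayed called without WT pair 4. HSPE1, the HSP10 lid of the mitochondrial chaperonin, had 105, 143, 117 and 126 CPM in W329G 5-FU libraries, against 155, 161, 149 and 203 CPM in W329G DMSO libraries. It had 97.7, 97.7, 117 and 93.0 CPM in WT 5-FU libraries, against 139.7, 188, 181 and 191 CPM in WT DMSO libraries. Neither genotype showed overlap. Its log2 fold change was -0.45 ± 0.14 in W329G cells (adjusted p = 0.151, and 0.0227 with the pair as block) and -0.80 ± 0.14 in WT cells (adjusted p = 0.00185).

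HSPD1, the HSP60 ring that HSPE1 caps, averaged 489 ± 29.5 CPM in W329G 5-FU and 679.8 ± 23.4 CPM in W329G DMSO libraries, and 374 ± 67.9 CPM in WT 5-FU and 569.7 ± 114 CPM in WT DMSO libraries. Both genotypes were again without overlap, and the log2 fold change was -0.48 ± 0.14 in W329G cells (adjusted p = 0.14, and 0.00709 with the pair as block) and -0.62 ± 0.14 in WT cells (adjusted p = 0.0119). HSPD1 and HSPE1 lie head to head on chromosome 2 and share 281 exon bases on opposite strands, so reads there could count for either. HSPA9, the mitochondrial HSP70 that drives protein import, had log2 fold changes of -0.24 ± 0.13 in W329G cells (adjusted p = 0.469) and -0.45 ± 0.13 in WT cells (adjusted p = 0.0448). Its WT call was lost with DESeq2 size factors, with no filter on low counts and without any 1 of the 4 WT pairs.

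All 5 of these CCT subunits fell in WT cells. Without WT pair 4 none of the 5 was called (adjusted p from 0.0812 to 0.252), and without WT pair 2 CCT5 alone was. In W329G cells edgeR called 0 of 5, with 2 (CCT8 and TCP1) at an unadjusted p under 0.05, while CCT8 passed with the pair as block (adjusted p = 0.0265) and with DESeq2 (adjusted p = 0.00247). In WT cells CCT5 changed most, with 354, 446, 365 and 381 CPM under 5-FU and 466, 606, 536 and 609 CPM under DMSO (log2 fold change -0.53 ± 0.12, adjusted p = 0.00928). The W329G 5-FU libraries had 378, 363, 396 and 413 CPM of CCT5, against 459, 425, 407 and 488 CPM in the W329G DMSO libraries, where the highest 5-FU and the lowest DMSO library overlapped (-0.21 ± 0.12, adjusted p = 0.478). CCT2, CCT3, CCT8 and TCP1 had WT log2 fold changes from -0.45 to -0.39 and W329G values from -0.36 to -0.22. All 5 were lower in every pair of both genotypes.

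**Figure D3:**
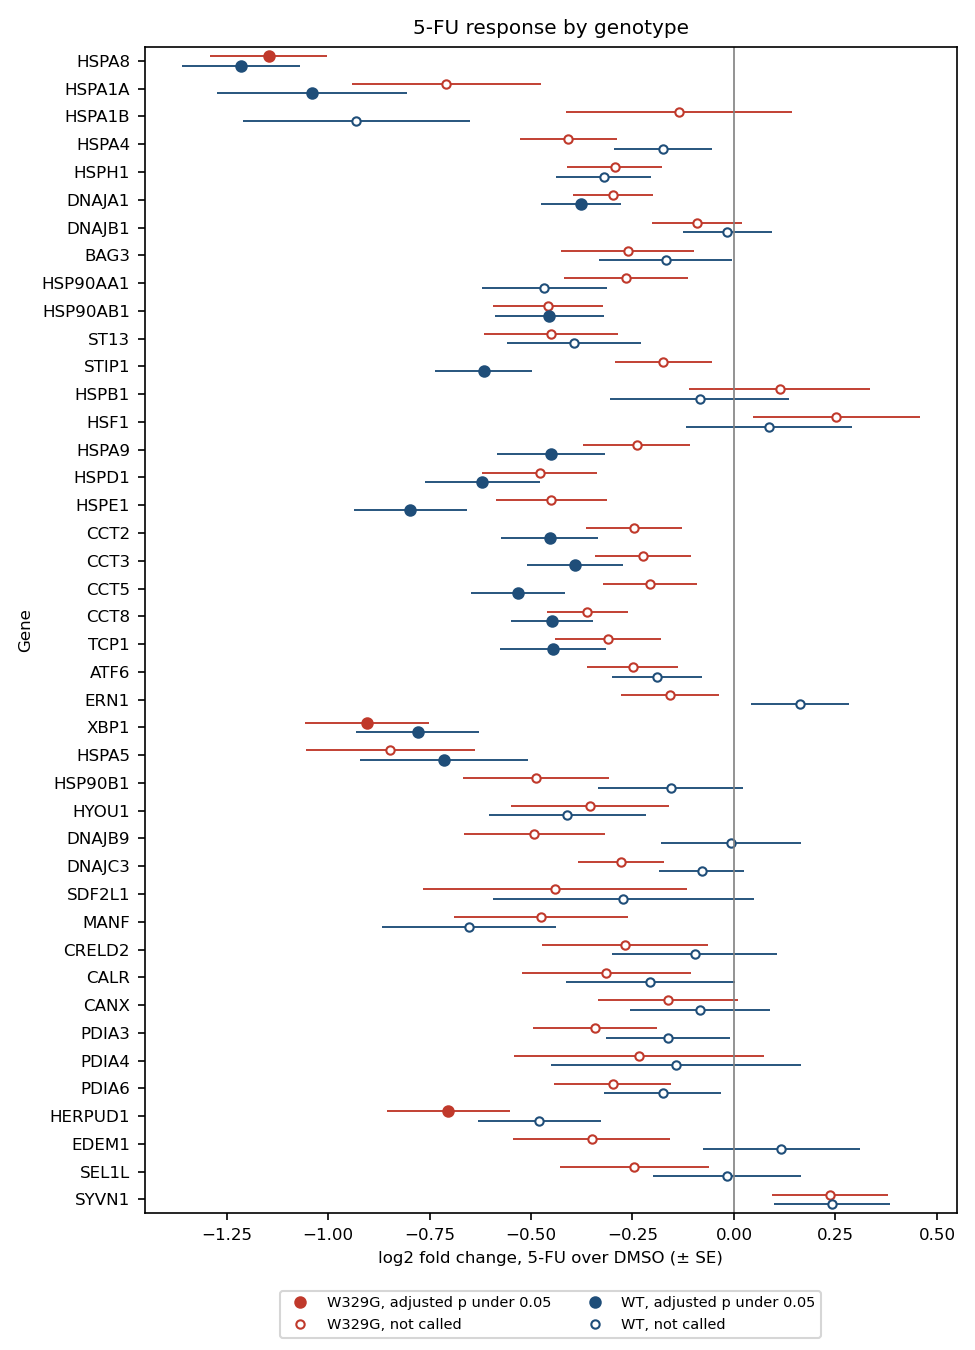
Log2 fold change under 5-FU relative to DMSO for the 42 genes, with SE bars, W329G above WT in each row. Filled points passed an adjusted p of 0.05: 3 of the W329G points and 15 of the WT points, all left of 0.

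In the ER, XBP1 fell in both genotypes. It had 58.7, 48.3, 27.7 and 23.6 CPM in W329G 5-FU libraries, against 77.5, 92.3, 62.3 and 50.3 CPM in W329G DMSO libraries. It had 34.5, 54.4, 28.1 and 26.4 CPM in WT 5-FU libraries, against 68.0, 86.6, 49.3 and 41.1 CPM in WT DMSO libraries. The groups overlapped across experiments, since the first experiment gave higher values, but every pair was lower. Fitted log2 fold changes were -0.90 ± 0.15 in W329G cells (adjusted p = 0.0148) and -0.78 ± 0.15 in WT cells (adjusted p = 0.00432). By experiment the mean pair responses of XBP1 were -0.67 and -1.13 in W329G cells and -0.83 and -0.72 in WT cells. A gene count does not separate spliced from unspliced XBP1.

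HERPUD1, an ER membrane protein that organises the degradation complex and is strongly induced by ER stress, fell in W329G cells. It had 52.2, 32.6, 26.1 and 24.9 CPM in W329G 5-FU libraries, against 58.2, 57.4, 47.9 and 50.8 CPM in W329G DMSO libraries. It had 51.3, 48.3, 31.4 and 31.3 CPM in WT 5-FU libraries, against 56.3, 57.9, 53.8 and 50.3 CPM in WT DMSO libraries. Replicate 1 changed least in both genotypes, by -0.16 and -0.13 on the log2 scale, and its 5-FU library reached into the DMSO range in both. HERPUD1 had a log2 fold change of -0.70 ± 0.15 in W329G cells (adjusted p = 0.0412) and -0.48 ± 0.15 in WT cells (adjusted p = 0.062, and 0.027 with the pair as block).

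The W329G calls of XBP1 and HERPUD1 were lost when pair 2, 3 or 4 was left out (adjusted p from 0.104 to 0.121 for XBP1 and 0.181 to 0.273 for HERPUD1), so that 1 of the 42 genes, HSPA8, was then called. In WT cells the count of 15 was 6 without pair 2 and 4 without pair 4; HSPA8, STIP1, HSPE1 and XBP1 stayed called in both. Each experiment alone, with 2 pairs a genotype, gave 0 calls in either genotype.

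HSPA5, the ER HSP70 also known as BiP, which holds the stress sensors inactive, had 497, 699, 467 and 299 CPM in W329G 5-FU libraries, against 753, 1151, 869.9 and 676 CPM in W329G DMSO libraries. It had 567, 711, 493 and 343 CPM in WT 5-FU libraries, against 734, 1119.98, 828 and 698 CPM in WT DMSO libraries. Each pair was lower, though 1 5-FU library of each genotype, replicate 2, reached into the DMSO range. HSPA5 had a log2 fold change of -0.85 ± 0.21 in W329G cells (adjusted p = 0.0747, and 0.00161 with the pair as block) and -0.71 ± 0.21 in WT cells (adjusted p = 0.0428). The WT call was lost with DESeq2 size factors and without any 1 of the 4 WT pairs.

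The other ER chaperones and cofactors were negative in both genotypes, 8 of 8 with HSPA5, and HSPA5 in WT cells was the only one called without the block. HSP90B1, the ER form of HSP90, averaged 822 ± 228 CPM in W329G 5-FU and 1148 ± 171 CPM in W329G DMSO libraries, and 939 ± 103 CPM in WT 5-FU and 1035 ± 76.8 CPM in WT DMSO libraries. MANF, a secreted protein that binds HSPA5, had log2 fold changes of -0.48 ± 0.21 in W329G cells and -0.65 ± 0.21 in WT cells (adjusted p = 0.349 and 0.0721). With the pair as block, HSP90B1, HYOU1 (an exchange factor for HSPA5), MANF and DNAJB9 (an ER J-domain protein) fell in W329G cells, and HYOU1 and MANF in WT cells.

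The lectin chaperones CALR and CANX, which fold glycoproteins, and the disulfide isomerases PDIA3, PDIA4 and PDIA6 did not pass the test in either genotype, with or without the block. Their log2 fold changes ran from -0.34 to -0.16 in W329G cells and from -0.21 to -0.084 in WT cells. In W329G cells all 5 were lower in all 4 pairs and in WT cells 0 of 5 were, with WT pair 1 positive for each. CALR had 986, 1605, 914 and 625 CPM in W329G 5-FU libraries, against 1209.6, 1968, 1116 and 814 CPM in W329G DMSO libraries. It had 1951, 1674, 992.5 and 787 CPM in WT 5-FU libraries, against 1641, 1821, 1383 and 1066 CPM in WT DMSO libraries.

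Of the sensors, ATF6 had log2 fold changes of -0.25 ± 0.11 in W329G and -0.19 ± 0.11 in WT cells, and ERN1 -0.16 ± 0.12 and 0.16 ± 0.12, none of which passed. In ER-associated degradation, EDEM1, which takes misfolded glycoproteins out of the folding cycle, had -0.35 ± 0.19 in W329G cells (adjusted p = 0.471, and 0.0456 with the pair as block) and 0.12 ± 0.19 in WT cells. SEL1L, the adaptor of the HRD1 ligase, had -0.25 ± 0.18 and -0.02 ± 0.18. SYVN1, the ligase itself, was the only gene of the 42 that was higher in all 4 pairs in both genotypes, as were 18.3% of all genes in W329G and 21.6% in WT cells (log2 fold change 0.24 ± 0.14 in each, adjusted p = 0.516 and 0.352). It shares exon bases with FAU and MRPL49, which had mean counts of 8332 and 2328 in experiment 1, against 1033 for SYVN1, so its counts may hold reads of theirs.

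The difference between the genotypes' responses was tested by the interaction, and 0 of the 42 genes were called, against 1.21% of all genes. Without the block, STIP1 was the 1 gene with an unadjusted p under 0.05 (W329G minus WT response 0.44 ± 0.17, 95% interval 0.086 to 0.80, adjusted p = 0.344), and DESeq2 called 0 with 4 at an unadjusted p under 0.05. With the pair as block, edgeR also called 0, with 6 at an unadjusted p under 0.05. Of these, EDEM1, STIP1 and HSPA1B had the smallest p (differences -0.44, 0.44 and 0.69, adjusted p = 0.0825, 0.0843 and 0.0984). The 95% intervals of the 42 differences reached from -1.14, for SDF2L1, to 1.63, for HSPA1B, with a median half-width of 0.45 on the log2 scale. These intervals are not adjusted for the number of genes tested, so a call needed a larger difference. For HSPA8 the interval was -0.36 to 0.50, for XBP1 -0.58 to 0.33 and for HSPA5 -0.75 to 0.49. By sign, 17 of the 22 cytosolic and mitochondrial genes had a less negative response in W329G than in WT cells and 18 of the 20 ER genes a more negative one, none of them called. Over the 42 genes 23 were negative, against 48.6% of all genes. The counts of 3 and 15 calls do not themselves test a difference between the genotypes.

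The study set the genotypes against each other directly. Under 5-FU, 4 of the 42 genes were lower in W329G than in WT cells and 0 were higher, against 7.15% and 7.3% of 17335 genes tested on counts summed per line. The count of 4 in 42 is near the share of all genes called lower. The 4 genes, DNAJC3, EDEM1, DNAJB9 and ERN1, belong to the ER. The 42 genes had a median log2 fold change of -0.072, with 22 negative, and all genes a median of -0.0098, with 51% negative. With the cell numbers exchanged in the second experiment, none of the 4 passed (adjusted p = 0.0602 for DNAJC3, 0.128 for EDEM1, 0.296 for DNAJB9 and 0.253 for ERN1), at nearly the same fold changes. If a number names different lines in each experiment, sums by label mix the lines and understate the spread between them. The SEs on these sums could then be too small, and the calls and shares of all genes too many. The sums also hold no term for experiment, and library sizes weight the experiments differently in each sum. A fold change on sums can therefore lie outside those of the single experiments. For DNAJB1 under DMSO it was -0.0095, against -0.035 and -0.26 in fits of experiments 1 and 2 alone.

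DNAJC3, an ER J-domain protein that also inhibits eIF2α kinases, had 24.5, 23.2, 17.4 and 16.1 CPM in W329G 5-FU libraries, against 40.0, 36.0, 29.5 and 27.6 CPM in WT 5-FU libraries. Under DMSO it had 24.9, 28.8, 23.7 and 19.7 CPM in W329G libraries, against 35.0, 41.7, 30.0 and 32.0 CPM in WT libraries. The genotypes were apart under both treatments, as 5.24% of all genes were in this direction under 5-FU and 1.76% under DMSO. Its log2 fold change was -0.68 ± 0.12 under 5-FU (adjusted p = 0.00776) and -0.49 ± 0.12 under DMSO (adjusted p = 0.0841). By experiment, its mean log2 CPM differed by -0.67 and -0.77 under 5-FU and by -0.51 and -0.52 under DMSO. On single libraries with a term for experiment, the DMSO difference passed as well (adjusted p = 0.0331). That fit counts the 2 libraries of a line separately. The DMSO difference did not pass with the cell numbers exchanged in the second experiment (adjusted p = 0.555). Nor did it pass in experiment 1 or 2 alone (adjusted p = 0.925 and 0.574).

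EDEM1 had 68.6, 65.1, 63.3 and 56.0 CPM in W329G 5-FU libraries, against 149.7, 132, 74.9 and 129 CPM in WT 5-FU libraries. Under DMSO it had 69.6, 83.6, 92.7 and 73.2 CPM in W329G libraries, against 121, 118, 73.7 and 129 CPM in WT libraries. WT replicate 3 was low under both treatments, and through it the genotypes overlapped under DMSO but not under 5-FU. The log2 fold change was -0.88 ± 0.17 under 5-FU (adjusted p = 0.0121) and -0.41 ± 0.17 under DMSO (adjusted p = 0.247). By experiment, mean log2 CPM of EDEM1 differed by -1.07 and -0.72 under 5-FU.

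ERN1 had 12.3, 13.2, 12.2 and 11.1 CPM in W329G 5-FU libraries, against 15.99, 17.9, 16.1 and 15.3 CPM in WT 5-FU libraries (log2 fold change -0.41 ± 0.12, adjusted p = 0.049). Under DMSO the genotypes overlapped, with 13.1, 12.8, 13.7 and 14.7 CPM in W329G libraries and 12.8, 13.4, 16.1 and 15.4 CPM in WT libraries. DNAJB9 had 8.57, 8.23, 6.39 and 6.39 CPM in W329G 5-FU libraries, against 10.7, 10.4, 12.3 and 8.91 CPM in WT 5-FU libraries (-0.54 ± 0.15, adjusted p = 0.0467). Under 5-FU all W329G libraries lay below all WT libraries for both genes, and under DMSO the genotypes overlapped for both. On single libraries with a term for experiment, DNAJB9 did not pass under 5-FU (adjusted p = 0.0543). DNAJB9 shares exon bases with PNPLA8 and THAP5 on the opposite strand, both with more counts than it.

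Each of the 4 calls was also lost when either W329G line was left out, and no gene of the 42 was then called. Without cells #1 of WT, 2 were called, and without cells #2 of WT, 6.

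**Figure D4:**
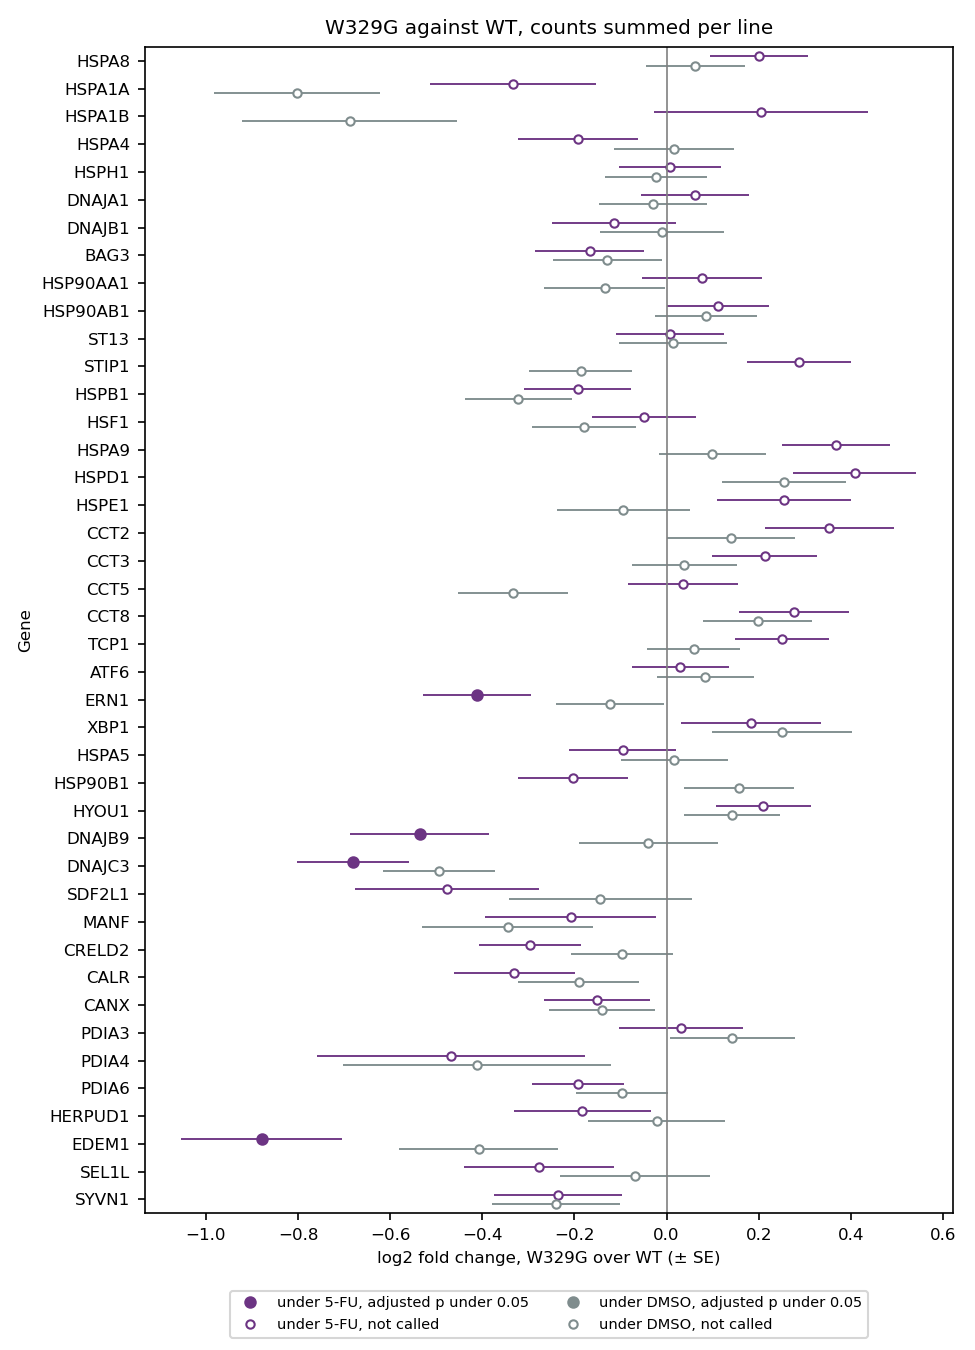
Log2 fold change in W329G relative to WT cells for the 42 genes, with SE bars, on counts summed per line, under 5-FU (purple) and under DMSO (grey). Filled points passed an adjusted p of 0.05, which were the 4 ER genes EDEM1, DNAJC3, DNAJB9 and ERN1 under 5-FU and none under DMSO.

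The rest of the 42 genes did not pass in this fit under 5-FU. DESeq2 called 6 of the 42, with 2 of them higher in W329G cells. With replicate numbers as a block, which do not pair libraries across genotypes, edgeR called HSPD1 and CCT2 higher (adjusted p = 0.0166 and 0.0314). The mitochondrial chaperones had positive values, with HSPD1 at 0.41 ± 0.13, HSPA9 at 0.37 ± 0.12 and HSPE1 at 0.25 ± 0.14 (adjusted p = 0.076, 0.0682 and 0.284). CCT8 was the only gene with all W329G 5-FU libraries above all WT 5-FU libraries (505 ± 22.4 against 423 ± 29.8 CPM, log2 fold change 0.28 ± 0.12, adjusted p = 0.159), a separation that 6.23% of all genes showed. All 4 genes of ER-associated degradation were negative, and none but EDEM1 was called. HSPA5 had -0.10 ± 0.12 and XBP1 0.18 ± 0.15.

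Under DMSO, 0 of the 42 genes were called between the genotypes, with 6 at an unadjusted p under 0.05, against 1.42% of all genes called. DESeq2 called 3. HSPA1A had the largest difference, -0.80 ± 0.18 (adjusted p = 0.0687), with 69.8 ± 16.3 CPM in W329G DMSO and 110.0 ± 52.3 CPM in WT DMSO libraries, which overlapped. Its mean log2 CPM differed by -0.31 in experiment 1 and by -0.81 in experiment 2. WT DMSO replicate 3, the library with the most counts, held 182 CPM and weighs most in the WT sum. The split of reads between HSPA1A and HSPA1B is uncertain here too.

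Other genes of the same machinery, 95 in 6 lists, gave 0 higher and 1 lower in the W329G response and 2 higher and 10 lower in the WT response. Of all genes, 0.196% were called higher and 0.595% lower in the W329G response, and 3.55% and 5.25% in the WT response. The median log2 fold changes of the 95 were -0.11 and -0.12. In the list of 28 cytosolic chaperones and cochaperones, the WT response held 4 genes that fell (FKBP5, FKBP4, PTGES3 and CACYBP) and 1 that rose (IER5, a regulator of HSF1), and the call of CACYBP was lost without WT pair 4 (adjusted p = 0.0568). FKBP5, an HSP90 cochaperone of steroid receptors, had 24.2, 26.0, 26.5 and 22.1 CPM in W329G 5-FU libraries, against 25.8, 35.0, 32.3 and 33.9 CPM in W329G DMSO libraries. It had 7.56, 10.4, 15.9 and 9.75 CPM in WT 5-FU libraries, against 20.7, 35.1, 38.0 and 31.5 CPM in WT DMSO libraries. The WT groups were apart and the W329G groups overlapped through DMSO replicate 1. The log2 fold change in WT cells was -1.54 ± 0.20 (adjusted p = 0.000145), and the W329G minus WT difference was 1.18 ± 0.27 (adjusted p = 0.0471), the 1 call among the 95. That difference was lost with DESeq2 size factors, without mitochondrially encoded genes, in each experiment alone and without any of 7 of the 8 pairs (adjusted p from 0.052 to 1.00).

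The 3 other CCT subunits tested, CCT4, CCT6A and CCT7, fell in WT cells as the 5 above did (log2 fold changes -0.39 ± 0.11, -0.48 ± 0.11 and -0.50 ± 0.12), and none of the 3 was called without WT pair 2 or without WT pair 4. Of the prefoldin genes, 0 of 6 were called. Among 10 mitochondrial chaperones and proteases, TRAP1, the mitochondrial HSP90, fell in WT cells, a call lost without any 1 of the 4 pairs (adjusted p from 0.0688 to 0.128). Of 22 ER chaperones and targets of XBP1 or ATF6, CREB3L2 fell in WT cells, a call lost without WT pair 1, 2 or 4 (adjusted p from 0.0834 to 0.117), and 0 were called in W329G cells. None of 16 other degradation genes was called in either response.

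In the PERK arm of 10 genes, ATF4, its transcription factor, fell in both genotypes. It had 361, 314, 299 and 268 CPM in W329G 5-FU libraries, against 580.3, 445, 397 and 424 CPM in W329G DMSO libraries. It had 193, 222, 214 and 214 CPM in WT 5-FU libraries, against 352, 374, 412 and 349 CPM in WT DMSO libraries. No libraries overlapped, and the log2 fold change was -0.57 ± 0.12 in W329G cells (adjusted p = 0.0376) and -0.83 ± 0.12 in WT cells (adjusted p = 0.000352). The W329G call of ATF4 was lost with no filter on low counts (adjusted p = 0.0679) and without any 1 of the 4 W329G pairs (adjusted p from 0.121 to 0.223). DDIT3, the CHOP gene induced by ATF4 in prolonged ER stress, had 9.59, 15.2, 11.3 and 6.27 CPM in W329G 5-FU and 4.95, 8.98, 16.1 and 7.95 CPM in W329G DMSO libraries. It had 12.9, 9.57, 10.5 and 10.8 CPM in WT 5-FU and 7.85, 5.53, 8.86 and 7.83 CPM in WT DMSO libraries, apart in WT cells (0.54 ± 0.31, adjusted p = 0.349). ATF3, a stress transcription factor that p53 also regulates, rose in WT cells (1.00 ± 0.20, adjusted p = 0.00484, and 0.0509 without pair 2).

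Between the genotypes under 5-FU, 7 of the 95 genes were higher in W329G cells and 8 lower, shares near the 7.3% and 7.15% of all genes. With the cell numbers exchanged in the second experiment, FKBP4 alone of these 15 stayed called (adjusted p = 0.0373), and the other 14 had adjusted p from 0.082 to 0.463. Without cells #1 of W329G, FKBP4 and CRYAB alone stayed called, and without cells #2 of W329G 0 of the 15 did. The higher ones held FKBP4 (0.88 ± 0.10), FKBP5 (1.10 ± 0.15), BAG2 (0.77 ± 0.14) and ATF4 (0.55 ± 0.12). CHAC1, an ATF4 target, was also higher (2.00 ± 0.32), but its W329G 5-FU libraries had 17.9, 2.98, 0.552 and 8.50 CPM, against 1.49, 1.67, 1.51 and 2.84 CPM in WT 5-FU libraries, and on single libraries it did not pass (adjusted p = 0.0851). The lower ones held OS9, SELENOS and EDEM2 of ER-associated degradation (-0.55 ± 0.10, -0.57 ± 0.14 and -0.64 ± 0.16) and SELENOK and SEC24D of the ER list. On single libraries 7 of the 15 did not pass, among them OS9, EDEM2 and SEC24D (adjusted p = 0.0969, 0.131 and 0.167). Under DMSO, TRAP1 and DNAJA3 were lower in W329G cells (-0.54 ± 0.10 and -0.53 ± 0.10), 2 of the 95 against 1.42% of all genes called in either direction. Both calls were lost with the cell numbers exchanged (adjusted p = 0.679 and 0.558), without either W329G line and without cells #1 of WT, and that of TRAP1 also on single libraries (adjusted p = 0.232).

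Levels per length could be compared in experiment 1, whose tables give exon lengths. CALR had a median of 3038 TPM over the 8 libraries (TPM, counts per length scaled to 1000000 per library, without mitochondrially encoded genes), HSP90AB1 2926 and HSPB1 2141. HSP90B1, HSP90AA1, HSPA8 and HSPA5 followed at 1044, 956, 947 and 898 TPM, with ranges that overlapped. The stress-inducible HSPA1A and HSPA1B stood at 104 and 88.6 TPM, and ERN1 lowest at 5.80. Together the 42 genes held 1.80% and 2.13% of TPM in the W329G 5-FU libraries, against 2.04% and 2.58% in the W329G DMSO libraries. In WT cells they held 1.97% and 2.04% under 5-FU, against 2.19% and 2.54% under DMSO. Each of the 4 pairs was lower under 5-FU.

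**Figure D5:**
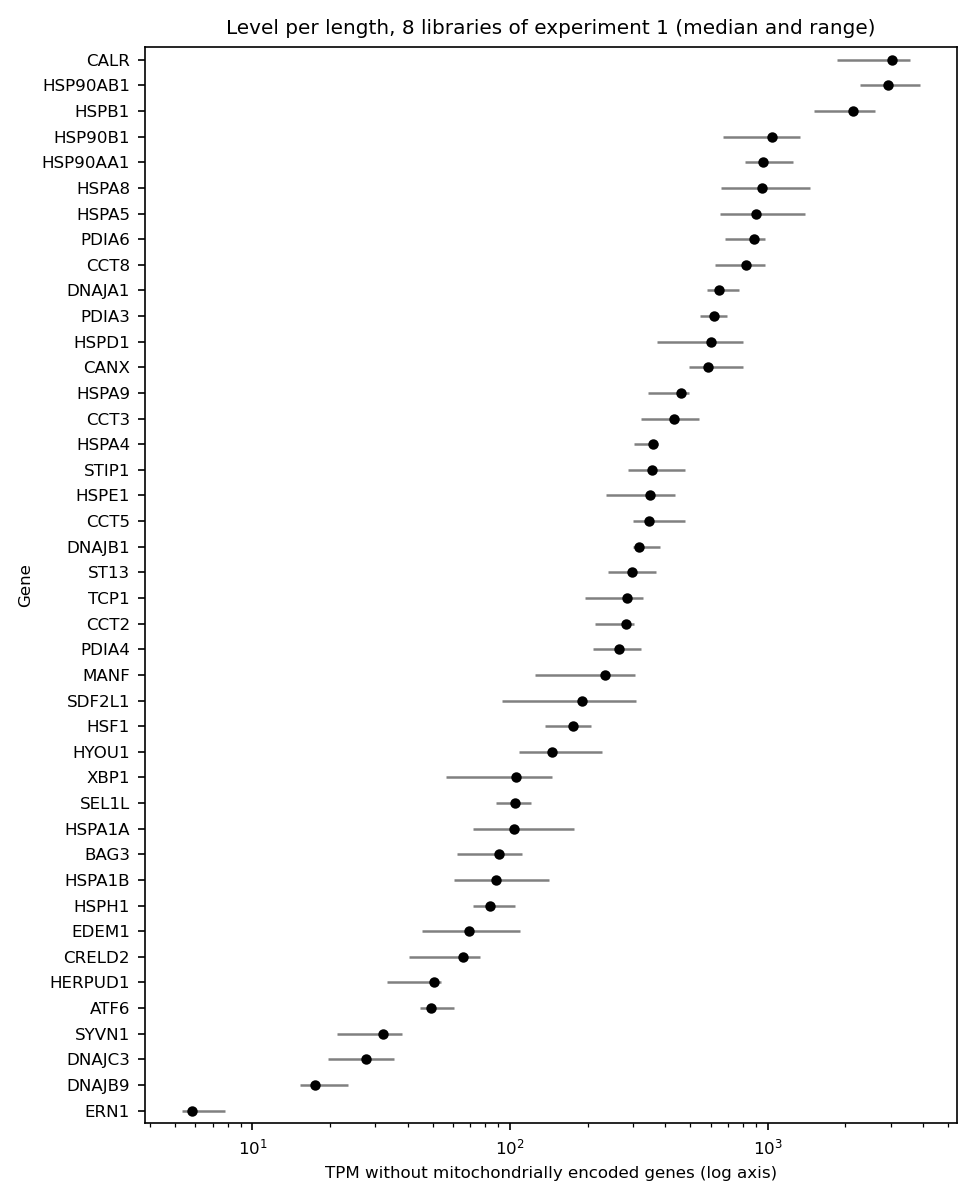
Level per length of the 42 genes in experiment 1, on a log axis of TPM, with the median (point) and range (line) over the 8 libraries, ordered by median. CALR, HSP90AB1 and HSPB1 lead at 3038, 2926 and 2141 TPM and ERN1 is lowest at 5.80.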

How the data were processed

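Per the labels' protocols, TruSeq libraries were prepared from poly-A RNA of U2OS cells. A table of raw counts per gene was deposited for each of the 16 libraries: per the file headers, Ensembl genes with exon coordinates and length in experiment 1, and gene symbols in experiment 2. The sources used here name neither aligner nor counter, nor say whether strand was used. Per the submitters' processing notes the build was hg19, while 96.3% of 56898 genes in experiment 1 had the coordinates of GENCODE release 29, which are those of GRCh38. All 26 counts of 7 digits in experiment 2 end in 0, so they look rounded.

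The tables were joined by symbol (57500 and 28890 genes, 28443 joined, 14 ambiguous symbols left out), which kept 97.64% to 98.63% of each library's counts. Groups, cell numbers and experiments came from the sample titles. Replicates within a group and experiment were no copies of each other (chi-square of their counts over degrees of freedom 60.2 to 183). Nothing says that the experiments used separate cultures, so p-values reflect only how these libraries vary, which may be technical.

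Counts were tested with edgeR 4.0.16 in R 4.3.3 (quasi-likelihood F test, TMM factors, filterByExpr, Benjamini-Hochberg adjustment over all genes, threshold 0.05). The 5-FU responses and their difference were fitted on 16 libraries with a term for experiment (16301 genes). The genotype comparisons were fitted on counts summed per line, with no term for experiment (8 sums, 17335 genes). Each SE was taken as the size of the fitted log2 change over the root of its F statistic. CPM are TMM-scaled, and pair responses and differences of mean log2 CPM use a prior count of 2. Intervals of the differences are 95% t intervals with the fit's moderated degrees of freedom. The fits were tested on simulated counts. 5-FU and DMSO libraries of a line and experiment were taken as pairs because they come from the same line, and the lines' difference under 5-FU correlated with that under DMSO (r from 0.49 to 0.71). Promoter windows come from RefSeq (GRCh38.p14).

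Members and lists were chosen with earlier results of these data known. Named were the members called in any comparison, a fixed set of always named genes (HSPA8, HSPA1A, HSPA1B, DNAJB1, HSP90AA1, HSF1, XBP1, HSPA5, DDIT3 and MDM2), and at most 3 called genes per list and comparison; other genes named were chosen after their values were seen. Alternatives were DESeq2 1.42.0 and its size factors, no filter on low counts, no mitochondrially encoded genes, each experiment alone, the replicate block, single libraries, exchanged cell numbers and leaving out each pair or line.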

Additional observations from a re-analysis of the deposited data

Results flagged for a closer look

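In 4 of 168 groups of 4 libraries, 1 library stood apart from the other three by Dixon's criterion (the gap to the nearest library over the whole range), and chance flags about 1 group in 20. The WT DMSO group of TCP1 had its lowest library at 245 CPM and the next at 336 (ratio 0.886). In W329G DMSO, PDIA3 had its highest library at 866 CPM and the next at 609 (ratio 0.936), and MANF its highest at 112 CPM and the next at 67.0 (ratio 0.834). In WT DMSO, SYVN1 had its highest library at 54.1 CPM and the next at 38.4 (ratio 0.837). The response of FKBP5, which is outside the 42 genes, differed between the genotypes by 1.18 on the log2 scale (W329G minus WT, adjusted p = 0.0471 by edgeR's interaction test); it was lower in 4 of 4 pairs in both genotypes, with responses from -0.61 to -0.091 in W329G cells and from -1.75 to -1.25 in WT cells.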

How the results depend on the processing

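Counts of called genes among the 42 are given. For 5-FU against DMSO in W329G cells (3), DESeq2 gave 9, either experiment alone 0, the replicate block 16, and leaving out a pair 1 to 3. For WT cells (15), either experiment alone gave 0 and leaving out a pair 4 to 10, while the replicate block gave 22. DESeq2 gave 19, its size factors 10 and no filter on low counts 11. For W329G against WT under 5-FU (4), DESeq2 gave 6, with 2 of them higher. No filter on low counts gave 2, experiment 1 alone 1, experiment 2 alone 0, exchanged cell numbers 0, and leaving out a line 0 to 6. Under DMSO (0), DESeq2 gave 3, no filter 2, the replicate block across genotypes 1, single libraries 1 and leaving out a line 0 to 4. The numbers do not pair libraries across genotypes; with them as a block, the 5-FU comparison gave 6. The difference of responses gave 0 calls under every alternative run. Fits of 1 experiment hold 8 libraries in place of 16, and DESeq2 size factors or leaving out mitochondrially encoded genes kept every one of these counts within 1.5 times. No result changed sign past the threshold. Medians over the 42 genes ran from -0.35 to -0.27 in W329G cells and from -0.43 to -0.23 in WT cells. The median under 5-FU between genotypes ran from -0.13 to -0.028. Counting error is small at these depths for all but the lowest genes, such as DNAJB9 and CHAC1, and the few lines per genotype limit how precise a value can be.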
